A study of Rattus norvegicus with 6 samples.

Results

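Small leucine-rich proteoglycans (SLRPs) are secreted matrix proteins, and 9 of their genes were named for study: Dcn, Bgn, Aspn, Lum, Fmod, Prelp, Omd, Ogn and Podn. They were selected by gene symbol in the expression table, which listed 30560 genes. Of the 9, 7 had a row under their symbol, and all 7 reached the mean of 1 FPKM needed for testing. Ogn and Podn were not analysed here under their own symbols, and an entry of unsettled identity beside Omd is described with the gene clusters. RNA came from primary cardiac fibroblasts of newborn SD rats aged 1 to 2 days, taken from the ventricles by enzyme digestion, enriched by attachment to the dish and kept without serum overnight. The antagomiR group (3 libraries) received 50 nM of an antagomiR, a modified antisense oligonucleotide, against miR-142-3p. The NC group (3 libraries) received the same dose of the reagent labelled NC, which the labels do not spell out, and both were delivered with Lipofectamine RNAiMAX. The labels call the antagomiR group a knockdown and name no transgene or strain difference. Whether the 3 libraries of a group came from separate cell isolations or pooled pups was not given in the sources used here, so the p-values below rest on variation among libraries that may be technical.

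SLRPs share a core protein built of leucine-rich repeats, which binds collagen fibrils and helps to set their spacing and diameter. Decorin and biglycan carry chondroitin or dermatan sulfate chains, while lumican, fibromodulin and osteomodulin carry keratan sulfate. Several of them also bind growth factors such as TGF-beta, and free biglycan can engage toll-like receptors. In the heart, fibroblasts are a main source of these proteins. The microRNA that the antagomiR was directed against is shown here with its seed, bases 2 to 8, in capitals, as listed in RefSeq (GRCr8, chr10:73055155-73055177, plus strand).
rno-miR-142-3p: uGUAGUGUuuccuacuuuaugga
The mature microRNA is not captured in libraries made from polyadenylated RNA, so its silencing was not checked by these values. Whether the SLRP transcripts carry sites for this seed was not analysed here.

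Library totals lay between 19472409 and 24622667 fragments, recovered from the steps of the FPKM values (fragments scaled by gene length and by library total). For a 1 kb gene, a detection floor of 3 fragments equals 0.122 to 0.154 FPKM by library, and floors and fragment numbers speak to counting error alone. Fibroblast markers were abundant, with a summed level of 12463 to 12652 FPKM over 10 genes in antagomiR libraries and 12948 to 13226 FPKM in NC libraries. The collagen genes Col1a1, Col1a2 and Col3a1 dominate that sum. Gene by gene, 5 of the 10 were called higher (Pdgfra, Tcf21, Ddr2, Postn and S100a4) and 3 lower (Col1a2, Thy1 and Vim). The median log2 fold change of the 10 was 0.18. Leukocyte markers were also present. Their sum over 15 genes was 943 to 1054 FPKM in antagomiR libraries, against 142, 209 and 727 FPKM in NC replicates 1, 2 and 3, so that NC replicate 3 stood apart within its group. Lyz2 was the largest part, at 484 to 566 FPKM in antagomiR libraries and 62.7, 105 and 390 FPKM in NC replicates 1, 2 and 3. Cd68, Mrc1, C1qa, C1qb and C1qc were higher in NC replicate 3 than in any antagomiR library. The other tested markers were lower there than in any antagomiR library. Of the leukocyte markers 14 were tested, and 6 were called higher and none lower, or 14 and none without NC replicate 3. Over all tested genes 17.5% were called higher and 9.21% lower, or 26.5% and 13.9% without NC replicate 3. These shares stand beside every marker count given here. Smooth muscle and pericyte markers summed to 3461 to 3782 FPKM in antagomiR libraries and 5539 to 6283 FPKM in NC libraries (5 of 6 tested called lower). Acta2 and Tagln dominate that sum. The pericyte markers Rgs5, Kcnj8 and Abcc9 were under 1 FPKM and not tested. Of these, Kcnj8 and Abcc9 were higher in every antagomiR library than in every NC library, while Rgs5 overlapped. Cardiomyocyte markers summed to 345 to 408 FPKM in antagomiR libraries and 422 to 467 FPKM in NC libraries, a sum dominated by Tnnt2. Of the 7 tested, Tnnt2 was called lower and 3 (Myh7, Actc1 and Myl2) higher, with a median log2 fold change of 0.33. In antagomiR and then NC libraries, epicardial and epithelial markers summed to 10.6 to 12.9 and 15.5 to 17.04 FPKM, endothelial markers to 4.6 to 5.26 and 2.91 to 3.61 FPKM, and cartilage and bone markers to 45.8 to 50.6 and 71.4 to 79.2 FPKM. The endothelial marker Emcn and the bone marker Ibsp were listed at 0 in all 6 libraries. Sox9 dominates the cartilage and bone sum, at 41.9 to 46.9 FPKM in antagomiR libraries and 66.5 to 74.5 FPKM in NC libraries. In the same list Alpl was lower and Runx2 higher in every antagomiR library than in every NC library. Upk3b and Msln were likewise lower and Wt1 higher among the epicardial markers. Tek and Egfl7 made up most of the endothelial sum. The part of these cell types in the SLRP results was not tested, and in such bulk RNA fewer cells of a type and less RNA per cell cannot be told apart.

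Setting antagomiR against NC libraries asks which SLRP transcripts differed when miR-142-3p was targeted. Transcripts of decorin, fibromodulin, lumican and PRELP were higher with the antagomiR, at 2.72, 2.11, 2.40 and 1.32 times the NC mean in FPKM. Biglycan, by far the most abundant, and osteomodulin were not called, and asporin was lower on average without passing the test. Calls were made with limma on log2(FPKM + 1) at a Benjamini-Hochberg adjusted p under 0.05 over 12024 tested genes, two-sided. Of the 7 members 4 were called higher and 0 lower, where 17.5% of tested genes were called higher and 9.21% lower, or 26.7% in either direction. Every antagomiR library was above every NC library for the same 4 members, as for 29.2% of tested genes, and 44.6% of tested genes had no overlap in either direction. The median log2 fold change of the 7 was 0.40, against 0.06 over all tested genes. Among all called genes 65.6% were higher, a share that was 51.5% once FPKM values were scaled by median ratios and 43.1% once they were quantile-normalized, which shifted the median of all genes by -0.11 on the log2 scale. The 4 rises were called under both scalings, and Aspn was called lower under both. NEWGENE_1308171, the entry beside Omd described with the gene clusters, was called lower but is not counted among the 7.

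**Figure D1:**
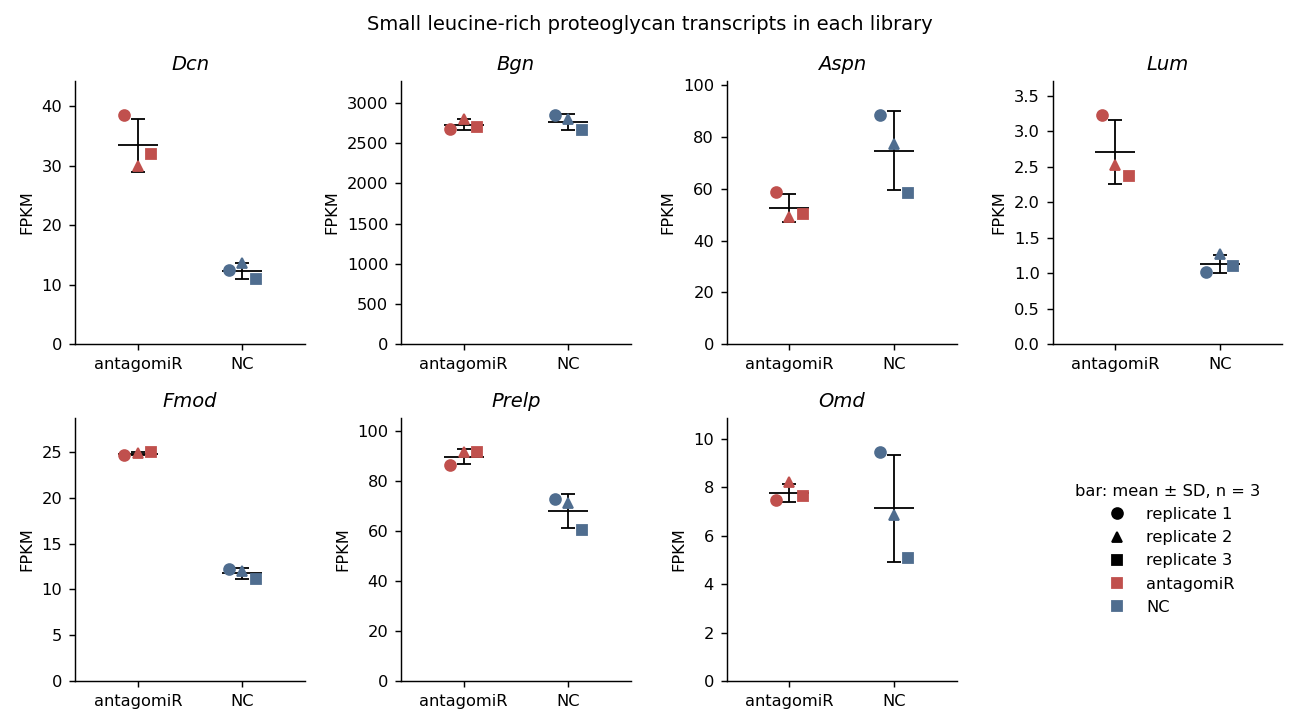
FPKM (vertical axes, from 0) of the 7 measured SLRP genes in each library, with antagomiR libraries on the left and NC libraries on the right of each panel; symbols mark replicates and black bars the mean ± SD (n = 3). Dcn, Lum, Fmod and Prelp do not overlap between the groups, whereas Bgn, Aspn and Omd do.

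Decorin (Dcn) binds collagen I and TGF-beta and is a classic product of quiescent fibroblasts. Dcn (ENSRNOG00000004554, chromosome 7, 32281252 to 32321270 in mRatBN7.2) was at 38.4, 29.9 and 31.95 FPKM in the 3 antagomiR libraries, against 12.4, 13.6 and 10.9 FPKM in the 3 NC libraries. These values rest on 1433, 1236 and 1226 fragments with the antagomiR and on 406, 553 and 361 in NC. The lowest antagomiR library was thus above the highest NC library. On the log2 scale Dcn differed by 1.37 ± 0.11 (SE, limma adjusted p = 0.000262), the largest change of the 7 members. Without NC replicate 3 it was 1.29.

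Biglycan (Bgn), the closest relative of decorin, was the dominant SLRP transcript. Bgn (ENSRNOG00000055962, chromosome X, 151197273 to 151209461) was at 2677, 2803 and 2707 FPKM in antagomiR libraries and at 2846, 2795 and 2660 FPKM in NC libraries. The ranges overlapped. Its mean over the 6 libraries was the 11th highest of the tested genes, and each library held 123328 to 162488 of its fragments, so counting error was not the limit. Its log2 fold change, -0.02 ± 0.08 (SE), did not pass the test (limma adjusted p = 0.881), and the 95% interval ran from -0.20 to 0.17, or 0.868 to 1.12 times. The ratio of Dcn to Bgn was 0.0123 ± 0.00189 in antagomiR libraries and 0.00444 ± 0.000384 in NC libraries (SD, n = 3 each), without overlap.

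Asporin (Aspn), a relative of decorin with an aspartate-rich stretch and no typical glycosaminoglycan attachment site, binds collagen and can inhibit TGF-beta. Aspn (ENSRNOG00000015410, chromosome 17, 15080639 to 15104041) was at 58.8, 49.1 and 50.2 FPKM in antagomiR libraries and at 88.3, 77.3 and 58.3 FPKM in NC libraries. AntagomiR replicate 1 was level with NC replicate 3, and the other antagomiR libraries were below all NC libraries. The difference of -0.48 ± 0.15 on the log2 scale (SE) did not pass the test (limma adjusted p = 0.0552). Its call depended on the settings: Aspn was called lower without NC replicate 3, at -0.64 (limma adjusted p = 0.00138), and with the replicate number as a block, at -0.48 (limma adjusted p = 0.027). Aspn was also called lower with median-ratio scaling, with quantile normalization and by limma voom on the recovered fragments. Over all alternatives its limma adjusted p ran from 0.00138 to 0.162. With NC replicate 3 left out, 4 members were called higher and 1 lower, where 26.5% and 13.9% of tested genes were, or 40.4% in either direction.

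Fibromodulin (Fmod) and lumican (Lum) compete for a binding site on collagen I and regulate fibril assembly. Fmod (ENSRNOG00000003183, chromosome 13, 45493517 to 45504133) was at 24.7, 24.9 and 25.02 FPKM in antagomiR libraries and at 12.2, 12.01 and 11.1 FPKM in NC libraries. With the smallest standard error of the 7, it had a log2 fold change of 1.02 ± 0.06 (SE, limma adjusted p = 5.72e-05). Lum (ENSRNOG00000004610, chromosome 7, 32358614 to 32365793) was the least abundant member, at 3.23, 2.53 and 2.38 FPKM in antagomiR libraries, from 235, 204 and 178 fragments, and at 1.02, 1.27 and 1.10 FPKM in NC libraries, from 65, 101 and 71 fragments. The groups did not overlap for either gene. For Lum the log2 fold change was 0.80 ± 0.11 (SE, limma adjusted p = 0.00269). At this low level the added 1 FPKM compresses the change, which was 1.25 with a pseudocount of 0.01 FPKM and 1.24 by limma voom on the recovered fragments. Without NC replicate 3 the values were 0.98 for Fmod and 0.79 for Lum.

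Prelp encodes a proline- and arginine-rich SLRP that anchors basement membranes to the connective tissue. Prelp (ENSRNOG00000003120, chromosome 13, 45370533 to 45380270) was at 86.4, 91.7 and 91.7 FPKM in antagomiR libraries and at 73.0, 71.2 and 60.4 FPKM in NC libraries, without overlap. It changed by 0.40 ± 0.08 on the log2 scale (SE, limma adjusted p = 0.0106) and 0.31 without NC replicate 3. Without antagomiR replicate 3 it was 0.38 and just missed the threshold (limma adjusted p = 0.0506). Osteomodulin (Omd), a keratan sulfate proteoglycan best known from bone, was at 7.46, 8.199 and 7.64 FPKM in antagomiR libraries and at 9.46, 6.86 and 5.07 FPKM in NC libraries. Omd (ENSRNOG00000039560, chromosome 17, 15060217 to 15068441) had antagomiR values that lay within the NC range, with a log2 fold change of 0.14 ± 0.18 (SE, limma adjusted p = 0.604). Its 95% interval, -0.28 to 0.57, spans 0.821 to 1.49 times, and without NC replicate 3 the value was -0.05.

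**Figure D2:**
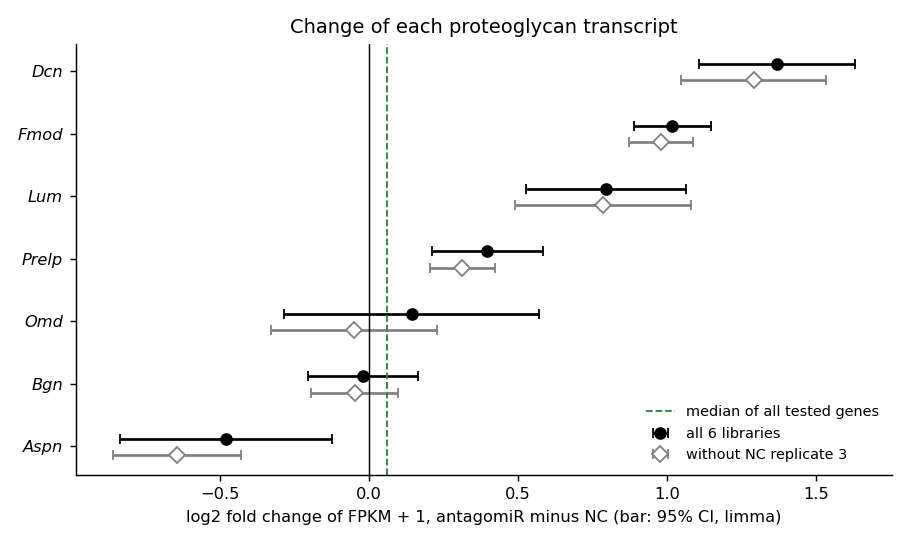
Log2 fold change of FPKM + 1, antagomiR minus NC (horizontal axis), of the 7 SLRP genes with 95% intervals from limma, for all 6 libraries (filled) and without NC replicate 3 (open); the dashed line is the median of all tested genes, 0.06. Dcn, Fmod, Lum and Prelp lie to the right of 0 in both fits, and the interval of Aspn narrows and moves left, to -0.64, without NC replicate 3.

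NC replicate 3, the NC library with the highest leukocyte marker sum, was the lowest of the 3 NC libraries for 6 of the 7 members, Lum being the exception, while 39.6% of all tested genes were lowest there. The part of leukocyte RNA in this was not tested.

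On the FPKM scale, which is per gene length, the 7 members added up to 2896, 3010 and 2916 FPKM in antagomiR replicates 1 to 3 and 3043, 2977 and 2806 FPKM in NC replicates 1 to 3. The sums overlapped, and Bgn made up 92.4% to 93.1% of them in antagomiR libraries and 93.5% to 94.8% in NC libraries. Without Bgn the sum of the other 6 was 211 ± 6.71 FPKM in antagomiR libraries and 175 ± 25.5 FPKM in NC libraries (SD, n = 3 each), and every antagomiR library was higher. The make-up of these 6 differed between the groups. Dcn supplied 15.8% ± 1.58 of them with the antagomiR and 7.07% ± 0.646 in NC, and Fmod 11.8% ± 0.427 and 6.79% ± 0.694. The share of Aspn was 24.9% ± 1.71 with the antagomiR and 42.3% ± 2.64 in NC. The groups did not overlap for any of these 3 shares, which were not tested, whereas the shares of Prelp, 39.4% to 44.5% with the antagomiR and 37.2% to 41.1% in NC, overlapped. These sums and shares leave out NEWGENE_1308171, the entry beside Omd. It was at 200, 207 and 214 FPKM in antagomiR replicates 1 to 3 and 357, 284 and 242 FPKM in NC replicates 1 to 3. With it the mean sum without Bgn would be lower with the antagomiR, the groups would overlap, and every share would be smaller.

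**Figure D3:**
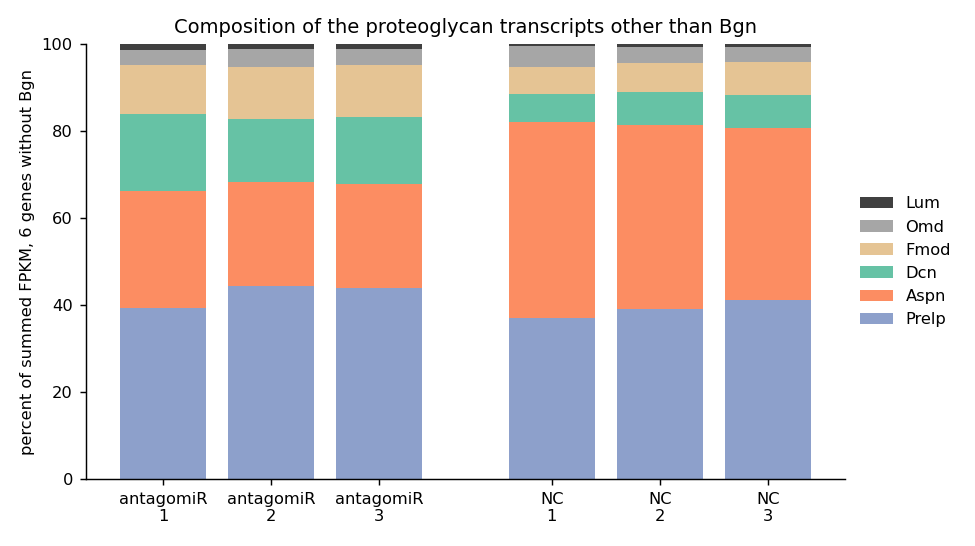
Share of each gene in the summed FPKM of the 6 SLRP genes other than Bgn (vertical axis, percent), by library, antagomiR libraries on the left and NC libraries on the right. Aspn takes 23.8% to 26.9% in antagomiR libraries and 39.7% to 45.0% in NC libraries, and Dcn takes 14.5% to 17.5% and 6.32% to 7.45%. The entry NEWGENE_1308171 is not included.

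The order of levels among the measured members also differed. In antagomiR libraries it was Bgn, Prelp, Aspn, Dcn, Fmod, Omd and Lum, and each gene's range lay apart from that of the next. In NC libraries it was Bgn, Aspn, Prelp, Dcn, Fmod, Omd and Lum, but Aspn and Prelp overlapped there, as did Dcn and Fmod. Bgn exceeded the next measured member 30.3 times with the antagomiR and 37.1 times in NC. NEWGENE_1308171, the entry beside Omd, is left out of this order, with means of 207 FPKM with the antagomiR and 295 FPKM in NC. With it counted, both ratios would be smaller, and the larger would be that with the antagomiR. The ratio of Prelp to Aspn was 1.47, 1.87 and 1.83 in antagomiR libraries and 0.827, 0.922 and 1.04 in NC libraries.

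SLRP genes lie in small clusters, and 6 of the 7 members fall in pairs on 3 chromosomes. On chromosome 7, Dcn and Lum stand with the relatives Kera and Epyc within 193 kb. Both members rose there, and the ratio of Dcn to Lum was 11.9, 11.8 and 13.4 in antagomiR libraries and 12.2, 10.7 and 9.93 in NC libraries, with overlap. Kera, the keratocan gene of the cornea, was listed at 0 in all libraries. Epyc, the epiphycan gene of cartilage, was at 0.865 ± 0.186 FPKM with the antagomiR and 1.25 ± 0.0427 FPKM in NC (SD, n = 3 each) and was not called (limma adjusted p = 0.101), although every antagomiR library was below every NC library.

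On chromosome 13, Prelp and Fmod lie within 149 kb together with Optc, which encodes the opticin of the eye. Optc was at 2.26 ± 0.205 FPKM with the antagomiR and 1.67 ± 0.224 FPKM in NC (SD, n = 3 each), without a call (limma adjusted p = 0.0779), and without overlap between the groups. The ratio of Fmod to Prelp was 0.277 ± 0.00818 in antagomiR libraries and 0.173 ± 0.0092 in NC libraries, so the 2 neighbours were not raised in proportion.

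On chromosome 17, Omd, Aspn and the related matrix gene Ecm2 lie within the 175 kb span of Cenpp, a centromere protein gene. The strand setting of the counting was not given in the sources used here, so reads of these overlapping genes may not be fully separated. Ecm2 rose to 2.18 ± 0.133 FPKM with the antagomiR, against 1.04 ± 0.151 FPKM in NC (SD, n = 3 each), with a log2 fold change of 0.64 (limma adjusted p = 0.00332). An entry named only NEWGENE_1308171, next to Omd, fell to 207 ± 7.06 FPKM with the antagomiR, against 295 ± 58.0 FPKM in NC, with a log2 fold change of -0.49 (limma adjusted p = 0.0322). It was named after its values were seen. Neither the expression table nor RefSeq pairs this entry with a symbol, while RefSeq (GRCr8) lists Ogn, the osteoglycin gene, as the neighbour of Omd on that side. In GRCr8 the start regions of Ogn and Omd are at 15258946 to 15259245 and 15274821 to 15275120, both on the minus strand. In mRatBN7.2 the entry ends at 15052739 and Omd at 15068441, a nearly equal spacing. The position of the entry thus matches Ogn, but no label used here names it so, and it is not counted among the members. Counted as one, it would add 1 member called lower and would be the most abundant after Bgn. In this cluster Ecm2 was thus called higher and NEWGENE_1308171 lower, while Omd and Aspn were not called.

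**Figure D4:**
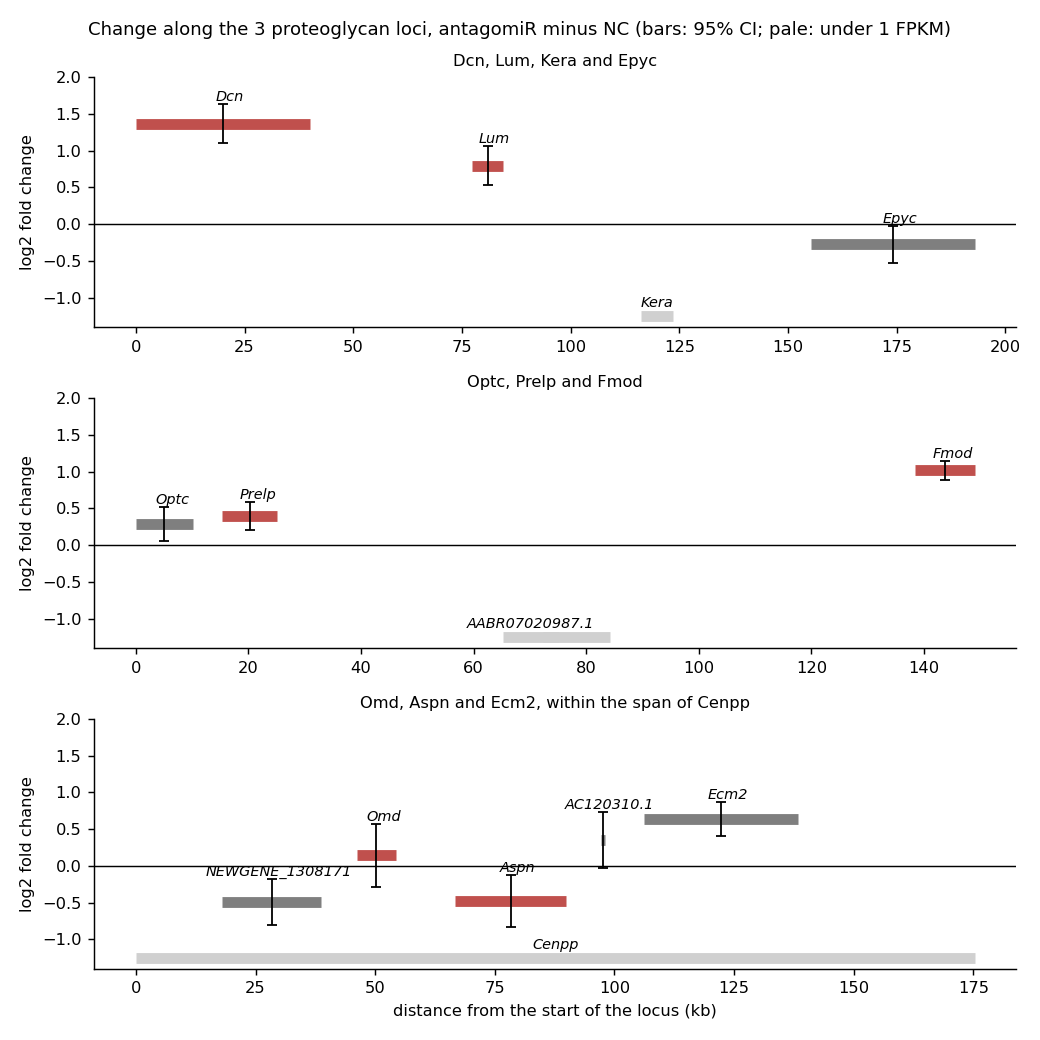
Log2 fold change, antagomiR minus NC (vertical axes), along the 3 SLRP clusters, by distance in kb from the start of each cluster; horizontal bars span the genes, red for members and grey for other tested genes, vertical bars are 95% intervals from limma, and pale bars at the foot are genes under 1 FPKM, placed without a value. Dcn and Lum, and Prelp and Fmod, lie above 0 in their clusters, while Ecm2, at 0.64, and Aspn, at -0.48, lie on opposite sides.

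Start regions of 4 measured members were listed in RefSeq (GRCr8), from 250 bases before to 50 bases after the start, on the strand of the gene. They are shown for Fmod (chr13:48045317-48045616, plus strand) and Lum (chr7:34245456-34245755, plus strand), which rose, and for Aspn (chr17:15310420-15310719, minus strand) and Omd (chr17:15274821-15275120, minus strand), which were not called. Capitals mark matches, on either strand, to the TATA box letters TATAAA, the GC box letters GGGCGG, the CCAAT box letters CCAAT, the AP-1 letters TGANTCA and the SMAD letters CAGACA. No match overlaps another.
Fmod: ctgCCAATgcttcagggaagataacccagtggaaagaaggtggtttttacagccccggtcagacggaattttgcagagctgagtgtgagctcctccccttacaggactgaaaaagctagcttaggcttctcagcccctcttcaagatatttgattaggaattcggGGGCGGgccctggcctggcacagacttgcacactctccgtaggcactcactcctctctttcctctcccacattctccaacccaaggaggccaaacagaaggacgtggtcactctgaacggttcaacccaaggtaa
Lum: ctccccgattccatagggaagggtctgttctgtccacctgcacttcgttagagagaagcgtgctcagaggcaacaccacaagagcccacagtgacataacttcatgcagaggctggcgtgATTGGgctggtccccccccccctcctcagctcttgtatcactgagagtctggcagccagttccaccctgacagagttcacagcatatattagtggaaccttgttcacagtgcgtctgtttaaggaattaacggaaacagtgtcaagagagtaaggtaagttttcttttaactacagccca
Aspn: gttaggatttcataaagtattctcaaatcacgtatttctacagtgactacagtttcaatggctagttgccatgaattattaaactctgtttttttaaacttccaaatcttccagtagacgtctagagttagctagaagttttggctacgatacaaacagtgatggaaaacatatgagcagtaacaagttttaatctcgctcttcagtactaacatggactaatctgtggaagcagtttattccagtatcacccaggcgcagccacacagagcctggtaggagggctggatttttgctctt
Omd: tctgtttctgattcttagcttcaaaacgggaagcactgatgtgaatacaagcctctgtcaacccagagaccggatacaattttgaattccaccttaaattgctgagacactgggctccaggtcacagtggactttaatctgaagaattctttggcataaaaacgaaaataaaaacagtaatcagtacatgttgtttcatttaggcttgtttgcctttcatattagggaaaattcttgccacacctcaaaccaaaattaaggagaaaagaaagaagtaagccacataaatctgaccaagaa
Counted from the start, Fmod held CCAAT at -247 and GGGCGG at -85, and Lum held CCAAT on the opposite strand at -130. Among all 33469 listed start regions 37.5% held CCAAT and 33.1% held GGGCGG, while CAGACA was found in 21.1%, TATAAA in 14.2% and TGANTCA in 7.33%. The letters of these motifs did not occur in the windows of Aspn and Omd. Their G and C content was 39.0% and 37.7%, below the lower quartile of all windows at 44.7%, while Fmod had 52.7% and Lum 50.7%. A match is a description of the letters and not a site in use.

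Related leucine-rich repeat genes of the matrix were few in these cells. Of 11 listed, 5 were tested, and 2 were called higher and 1 lower, with a median log2 fold change of 0.28. Beside this list and those below, 17.5% of all tested genes were called higher and 9.21% lower. Without NC replicate 3 these shares were 26.5% and 13.9%. Tsku, which encodes tsukushi, rose to 19.8 ± 0.582 FPKM with the antagomiR, against 16.2 ± 1.53 FPKM in NC (SD, n = 3 each). Lrrc17, a secreted leucine-rich repeat gene, fell to 3.33 ± 0.189 FPKM with the antagomiR, against 7.98 ± 0.291 FPKM in NC (log2 fold change -1.05, limma adjusted p = 0.000115). Ecm2 is the other risen gene, and Optc and Epyc were not called. The count called higher was 1 with median-ratio scaling, with quantile normalization and when any library except NC replicate 3 was left out.

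Genes that build the sugar chains of SLRPs moved in both directions. Of 25 chondroitin and dermatan sulfate genes 23 were tested, and 3 were called higher and 5 lower, with a median log2 fold change of -0.08. Over all tested genes 17.5% were called higher and 9.21% lower. Ugdh, which makes the UDP-glucuronate used for the chains, rose to 38.6 ± 0.733 FPKM with the antagomiR, against 24.5 ± 1.97 FPKM in NC (SD, n = 3 each). Papss1, which makes the sulfate donor, fell to 37.8 ± 1.01 FPKM, against 52.6 ± 0.889 FPKM in NC, and Ust, a uronyl sulfotransferase, to 11.7 ± 0.387 FPKM, against 17.8 ± 0.824 FPKM in NC. Chpf2, a chondroitin polymerizing factor, fell by 0.33 on the log2 scale, while its relative Chpf rose by 0.30 (limma adjusted p = 0.00224 and 0.0254). The xylosyltransferases Xylt1 and Xylt2, which start the chains, were not called, with log2 fold changes of -0.15 and 0.08, nor was the dermatan epimerase Dse, at 0.09. The counts were 6 higher and 8 lower without NC replicate 3, where 26.5% and 13.9% of all tested genes were so called. They were 1 and 3 without antagomiR replicate 3, 2 and 3 without antagomiR replicate 2, and 3 and 8 after quantile normalization.

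Of 10 genes listed for keratan sulfate 7 were tested, and 3 were called higher and 1 lower, with a median log2 fold change of 0.23. St3gal1, a sialyltransferase, rose to 6.57 ± 0.0253 FPKM with the antagomiR, against 3.33 ± 0.445 FPKM in NC (SD, n = 3 each). B3gnt2, which extends the chain with N-acetylglucosamine, rose by 0.63 and B4galt1, a galactosyltransferase, by 0.32 on the log2 scale. Chst2, a sulfotransferase, fell by 0.37 (limma adjusted p = 0.0302). That call was lost, leaving 0 lower, with no filter, with the replicate block and without antagomiR replicate 1, 2 or 3 or NC replicate 1, while 2 genes were called lower without NC replicate 3.

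Among proteases reported to process or cleave SLRPs, 12 of 16 listed were tested, and 7 were called higher and 1 lower, with a median log2 fold change of 0.32. Adamts5 and Adamts4, which cleave proteoglycan core proteins, rose to 26.8 ± 2.80 and 2.04 ± 0.110 FPKM with the antagomiR, against 12.8 ± 1.40 and 0.693 ± 0.113 FPKM in NC (SD, n = 3 each). With an NC mean under 1 FPKM, Adamts4 passed the filter on the mean of all 6 libraries only through its antagomiR values. Mmp2, a gelatinase, rose to 809 ± 8.16 FPKM, against 597 ± 23.2 FPKM in NC. Bmp1, which removes the propeptides of biglycan and decorin in matrix assembly, was at 92.1 ± 1.77 FPKM with the antagomiR and 91.1 ± 1.21 FPKM in NC and was not called, while its relative Tll1 fell to 10.8 ± 0.144 FPKM, against 19.1 ± 1.94 FPKM in NC. Mmp12, a macrophage elastase, was at 218, 219 and 224 FPKM in antagomiR libraries and 22.3, 23.0 and 80.3 FPKM in NC libraries, highest among NC in replicate 3, as were the leukocyte markers.

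Collagens and elastin that SLRPs bind were also divided. Of 15 listed 13 were tested, and 3 were called higher and 5 lower, and their median log2 fold change was -0.15. The risen genes were 3 chains of collagen VI, which binds biglycan and decorin, led by Col6a1 with a log2 fold change of 0.88 (limma adjusted p = 0.00025). Eln, elastin, fell by 1.49, Col14a1 by 0.86 and Col12a1, a fibril-associated collagen like it, by 0.67. Col1a1 and Col3a1, chains of the fibrillar collagens that decorin, lumican and fibromodulin bind, were not called, with log2 fold changes of -0.15 and -0.03. Only 3 genes of this list were called lower with the replicate block and without antagomiR replicate 1, 2 or 3 or NC replicate 2.

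Of 22 ligands and receptors reported to bind SLRPs 19 were tested, and 7 were called higher and 4 lower, with a median log2 fold change of 0.14. Tgfb3 fell by 1.40 and the receptor gene Pdgfra rose by 1.59 (limma adjusted p = 4.46e-05 and 8.28e-05). Of the receptors that free biglycan can engage, Tlr2 and Tlr4 were higher in every antagomiR library than in every NC library. Tlr2 was at 14.8, 15.9 and 15.1 FPKM in antagomiR libraries and 0.471, 0.887 and 1.98 FPKM in NC libraries, with a log2 fold change of 3.01 (limma adjusted p = 0.000219). Tlr4 was at 3.62, 3.59 and 3.90 FPKM in antagomiR libraries and 1.81, 1.63 and 2.20 FPKM in NC libraries. Cd44, a hyaluronan receptor, rose by 1.57. Tlr2, Tlr4, Cd14 and Cd44 are also expressed by leukocytes, and Cd14 is itself on the leukocyte list. The leukocyte marker sum was higher in antagomiR libraries and, among NC libraries, highest in replicate 3. The part of those cells in these rises was not tested.

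Of 14 large and basement membrane proteoglycans 7 were tested, and 4 were called higher and 3 lower, with a median log2 fold change of 0.39. Col18a1, whose product carries heparan sulfate, rose to 43.0 ± 1.53 FPKM with the antagomiR, against 23.3 ± 2.23 FPKM in NC (SD, n = 3 each), Smoc2 by 0.89 and Agrn, agrin, by 0.39 on the log2 scale. Cspg4, a chondroitin sulfate proteoglycan of the cell surface, fell by 0.51.

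**Figure D5:**
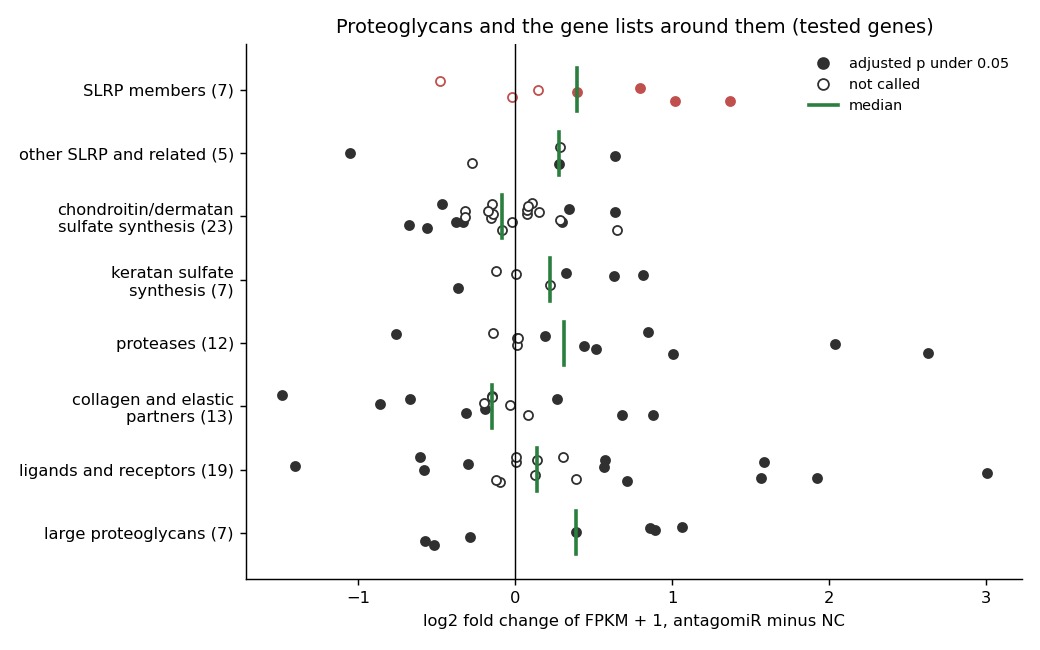
Log2 fold change of FPKM + 1, antagomiR minus NC (horizontal axis), of the tested genes of each list (rows, number of genes in brackets); filled points passed an adjusted p under 0.05, open points did not, and green bars are medians. The SLRP genes run from -0.48 to 1.37, with 4 called members above 0, and each of the other lists holds called genes on both sides of 0.

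Genes whose levels followed single members most closely were found by Pearson's r of log2(FPKM + 1) over the 6 libraries, a description that mostly carries the gap between the groups and has no test. Fmod was followed by Cp, ceruloplasmin, and by P4ha2, a collagen hydroxylase subunit (r = 0.999 each). Dcn was followed by Cemip2, a hyaluronidase-like gene, and Usp53 (r = 0.997 each), and Prelp by Nr3c1, the glucocorticoid receptor, and Gprc5b (r = 0.999 each). Aspn was followed by Zfp609 and Trappc6b (r = 0.993 each), and neither of these was called. The closest to Lum were AABR07036855.1 and Pttg1 (r = 0.998 and 0.997), to Bgn Pdik1l and Rmnd1 (r = 0.995 and 0.994), and to Omd Snx13 and Idua (r = 0.999 each).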

How the data were processed

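Per the labels, libraries of polyadenylated RNA were read from both ends at 150 bp. HISAT2, HTSeq, cutadapt, FastQC and edgeR appear, without versions, in the submitters' processing notes, with the build mRatBN7.2. No source used here gives the annotation release or the strand setting. The authors deposited FPKM, fragment counts scaled by gene length and library total, for 30560 genes in 6 columns, matched to samples by title. 0 columns of per-sample values were left out.

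Whole fragments were recovered by finding library totals from genes under 400 bp and, per gene, a gene length at which its 6 values came out whole to 0.01 (100% of 20134 genes above 0). The test was limma 3.58.1 in R 4.3.3 (trend), on log2(FPKM + 1), for the 12024 genes whose mean reached 1 FPKM, checked on simulated data. Simulated libraries of a group differed by random draws alone, with none set apart, so that check does not cover a library like NC replicate 3. Tables were made with Python 3.11.15 and pandas 2.3.3. Alternatives were other pseudocounts, filters, scalings, variance settings, a replicate block, limma voom on the fragments and leaving out each library.

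Members, lists and tests were chosen with earlier results of these data known. Named genes are all members, up to 4 genes with the smallest p per list and, for each member, the 2 genes most alike. Others were chosen after their values were seen: Xylt1, Xylt2, Dse, Chpf, Bmp1, Mmp12, Col1a1, Col3a1, Tlr4, Cd14, the named cell type markers and the neighbours in the clusters. Of the members, 6 had a RefSeq start region, 4 of these with values.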

Additional observations from a re-analysis of the deposited data

How the results depend on the processing

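Limits come first. With 3 libraries per group, and NC replicate 3 apart from the others in its leukocyte markers, values for Aspn and Omd rest in part on that library. Depth limits Lum most, with 65 to 235 fragments.

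The rises of Dcn, Fmod and Lum were called in every alternative that tested them (Lum fell below a filter at 5 FPKM). Prelp was called in all but the fit without antagomiR replicate 3, at 0.38, within a range of 0.31 to 0.45 when 1 library was left out. Aspn was called lower with median-ratio scaling (-0.55), quantile normalization (-0.54), the replicate block (-0.48) and voom on recovered fragments (-0.49), so that 1 member was called lower in each of these, and when libraries were left out it ran from -0.64, called, to -0.35. Bgn changed sign with quantile normalization (0.035) and, leaving out 1 library, ran from -0.048 to 0.0012, and Omd from -0.049 to 0.34, without a call for either. Leaving out 1 library gave 0 to 1 members called lower, 3 to 4 called higher, 1883 to 4862 called genes of all tested, against 3216, and 37 to 62 called list genes, against 49. The summed FPKM of the members differed by -1.59 between antagomiR and NC, by -142 after median-ratio scaling, and by -69.5 to 48.7 without 1 library. Why these values moved was not tested.

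No label ties libraries of equal number to a common isolation. Their deviations from the group means correlated at -0.158, -0.0634 and -0.0442 for numbers 1, 2 and 3. The replicate block called 2380 genes and changed no other member's call.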
